A study of Sus scrofa with 9 samples.

Results

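The 160 genes described here are the expressed members of the ZNF family in porcine immature Sertoli cells, measured in unheated cells, in cells just heated and in cells that had recovered. They are the protein-coding genes whose symbol in the deposited table is ZNF followed by a number and whose FPKM (a fragment count scaled by gene length and library size) was at least 1 in at least 3 of the 9 libraries. The table holds 218 such symbols among 20681 genes. The other 58 stayed under the filter, and 11479 genes of all kinds passed it, 10444 of them other protein-coding genes. The members were thus chosen by name and by their FPKM in the libraries described here, so that their presence is no finding.

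Most ZNF genes encode proteins with arrays of C2H2 zinc fingers, small folds held by a zinc ion that read short stretches of DNA. Many carry a KRAB box before the fingers, which binds the scaffold protein TRIM28 and through it the methyltransferase SETDB1 and HP1 proteins, and so silences the chromatin around the bound site, transposable elements above all. Others carry a SCAN domain for pairing with one another, and a few work outside transcription, on RNA, ribosomes or the mitotic spindle. The genes lie in clusters made by tandem duplication. Sertoli cells are the supporting cells of the testis, which nurse the germ cells inside the cords.

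The cells came from testes of fetal pigs, 80 to 90 days into gestation, and were grown in minimum essential medium with 10% fetal bovine serum at 37 °C and 5% CO2. The 3 control libraries are from cells taken before heat, after 6 h of culture. The 3 HS0.5 libraries are from cells held for 0.5 h at 43 °C and collected with 0 h of recovery, and the 3 HS0.5-R36 libraries from cells given the same heat and then 36 h at 37 °C. Cells kept 36 h longer without heat are not analysed here, so time in culture and recovery from heat cannot be told apart in the HS0.5-R36 group. The labels do not say whether replicates are separate cultures or animals, and each p-value measures the spread between these samples alone, which may be technical. These are bulk samples, in which fewer cells expressing a gene and less RNA of it per cell cannot be told apart.

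The libraries held 18110565 to 21034021 reads as recovered from the FPKM. The library size implied by the FPKM was 1.17 to 1.19 times the recovered reads for HS0.5-R36 libraries, against 0.902 to 0.973 times for control and HS0.5 libraries, which makes the deposited HS0.5-R36 FPKM lower relative to the others than recovered reads alone would. The heat genes HSPA6, DNAJB1, HSPH1 and HSP90AA1 were called higher in HS0.5 than in control cells. The Sertoli genes AMH, WT1 and SOX9 averaged 16.5, 7.19 and 5.29 FPKM over the 9 libraries, while DMRT1, INHA, NR5A1 and DHH stayed under 0.04 FPKM; of the 7 tested Sertoli markers 6 were called lower in HS0.5-R36 than in control cells. The summed FPKM of 8 peritubular myoid markers ran from 659.6 to 1001 for control, from 642.6 to 702.3 for HS0.5 and from 119.9 to 161.2 for HS0.5-R36 libraries; TAGLN was the highest of them, and the defining genes ACTA2 and MYH11 averaged 0.138 and 0.00391 FPKM. The sums of the Leydig, germ cell, endothelial and immune lists reached at most 10.7 FPKM in a library. Of the Leydig genes CYP11A1 was higher in HS0.5-R36 (1.95 ± 0.127 FPKM) than in control cells (0.121 ± 0.0929 FPKM; limma adjusted p = 3.7e-06) and STAR was not called, and of the immune genes CD68 was higher (3.72 ± 0.221, against 2.08 ± 0.153 FPKM; limma adjusted p = 0.00013) and CD14 was not called, though both were higher than in HS0.5 cells (limma adjusted p = 0.0096 for CD68 and 0.0023 for CD14). The part of these shifts in the ZNF values was not tested. Control replicate 2 stood apart from the other controls, as in the summed FPKM of the 54 longest members, 171 there and 212 and 217 in the other controls.

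The ZNF genes were modestly expressed. Their median FPKM over the 9 libraries was 3.69, with a range of 0.609 to 47.6, against 8.93 for the other tested protein-coding genes. Of the 160, 103 averaged under 5 FPKM and 26 averaged at least 10, and 123 reached 1 FPKM in all 9 libraries. Their median length in the deposited table was 4704 bases, against 4350 for the other protein-coding genes. The members nearest the threshold were ZNF567, ZNF614 and ZNF84, whose highest 3 libraries all reached 1 FPKM (the lowest of the 3 at 1.03 in each), and the nearest outside were ZNF577, ZNF333 and ZNF684, at 0.979, 0.965 and 0.962. None of the 58 genes under the filter was at 0 in all 9 libraries, and the medians of their group means were 0.0718 FPKM for control, 0.0826 for HS0.5 and 0.180 for HS0.5-R36 cells.

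The most expressed member was ZNF664, with 41.6, 38.4 and 45.7 FPKM in control libraries, 46.3, 47.6 and 52.2 FPKM in HS0.5 libraries and 58.8, 48.0 and 49.7 FPKM in HS0.5-R36 libraries. It was followed by ZNF358, ZNF207, ZNF444, ZNF622, ZNF768, ZNF16, ZNF330, ZNF326 and ZNF511, which averaged 19.0 to 27.4 FPKM over the 9 libraries. ZNF207 (BuGZ) carries the checkpoint protein BUB3 to kinetochores, ZNF622 acts in maturation of the large ribosomal subunit, ZNF326 is part of a complex that couples splicing to elongation by RNA polymerase II, and ZNF330 is a nucleolar protein. ZNF664 was the highest member in all 9 libraries. Over the 10 pairs of neighbours in this order, ending with ZNF511 and ZNF598, the gap between means was under the larger SD over libraries in 9; ZNF444 alone ran from 13.8 to 37.4 FPKM.

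Summed over the 160 members, the FPKM was 876 ± 3.03 in the control group, 942 ± 7.92 in the HS0.5 group and 986 ± 3.06 in the HS0.5-R36 group (SD, n = 3 each). The members' share of the FPKM of all genes was 0.245% ± 0.0246 for control, 0.263% ± 0.00883 for HS0.5 and 0.349% ± 0.00634 for HS0.5-R36 libraries, the last whose libraries have a lower total over all genes. The highest of the 3 group means was that of HS0.5-R36 for 82 members, of HS0.5 for 60 and of control for 18. The 82 include the 6 members that passed the filter through HS0.5-R36 libraries alone, whose place the filter fixed. No such count is given for other genes. The deviation of each gene from its own mean over the 9 libraries had a member median of -0.12, -0.20 and -0.09 log2 in the control libraries, of 0.04, 0.03 and 0.05 in the HS0.5 libraries and of 0.12, 0.09 and 0.08 in the HS0.5-R36 libraries. Other protein-coding genes, weighted to the members' spread of FPKM, had medians of -0.07 to -0.04 for control, -0.04 for HS0.5 and 0.08 to 0.10 for HS0.5-R36 libraries. The members thus lay under genes of like FPKM in all 3 control libraries and above them in all 3 HS0.5 libraries.

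**Figure D1:**
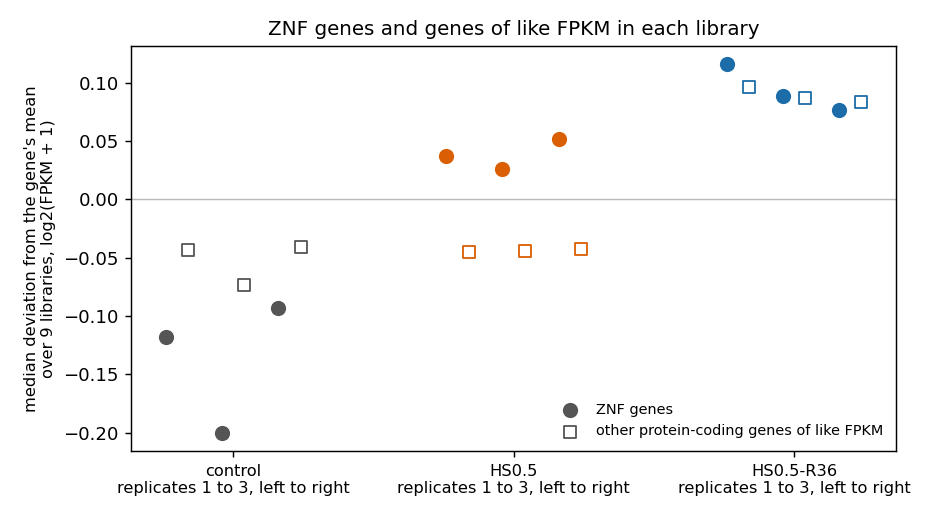
Median deviation of 160 ZNF genes (filled circles) and of other protein-coding genes of like FPKM (open squares) from each gene's own mean, in log2(FPKM + 1), for the 3 libraries of each group. ZNF genes lie at -0.20 to -0.09 for control, 0.03 to 0.05 for HS0.5 and 0.08 to 0.12 for HS0.5-R36 libraries, while genes of like FPKM move little between control and HS0.5.

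The comparison of HS0.5 with control cells asks what differs by the end of the heat exposure, with the 0.5 h of further time and the handling included. A ZNF gene that changed by then mostly went up: 18 members rose and 3 fell (limma on log2(FPKM + 1), Benjamini-Hochberg adjusted over all tested genes, threshold 0.05), which is 11.2% and 1.88% of the 160. Over all tested genes 2.29% were called higher and 1.32% lower, and among other protein-coding genes weighted to like FPKM 2.68% and 1.35%. The members' median log2 difference was 0.16, with quartiles of -0.07 and 0.35, against -0.01 for genes of like FPKM and -0.01 for all tested genes. Of the 160, 114 had a positive difference. Every HS0.5 library lay above every control library for 72 members (other protein-coding genes 20.8%), and below for 18 (other protein-coding genes 20.3%). These shares are over other tested protein-coding genes of any FPKM.

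The rises were of moderate size, none reaching a difference of 1 on the log2(FPKM + 1) scale, which understates changes of weakly expressed genes. The number of calls depended on the libraries and the fit: it was 4 to 22 with 1 library left out, with the lowest of these without HS0.5 replicate 3, and 6 when the control and HS0.5 libraries were fitted alone. Over the 22 other fits, the calls of ZNF189, ZNF200, ZNF41 and ZNF628 held wherever the gene was tested. In each of those fits the share of members called higher exceeded that of other protein-coding genes.

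**Figure D2:**
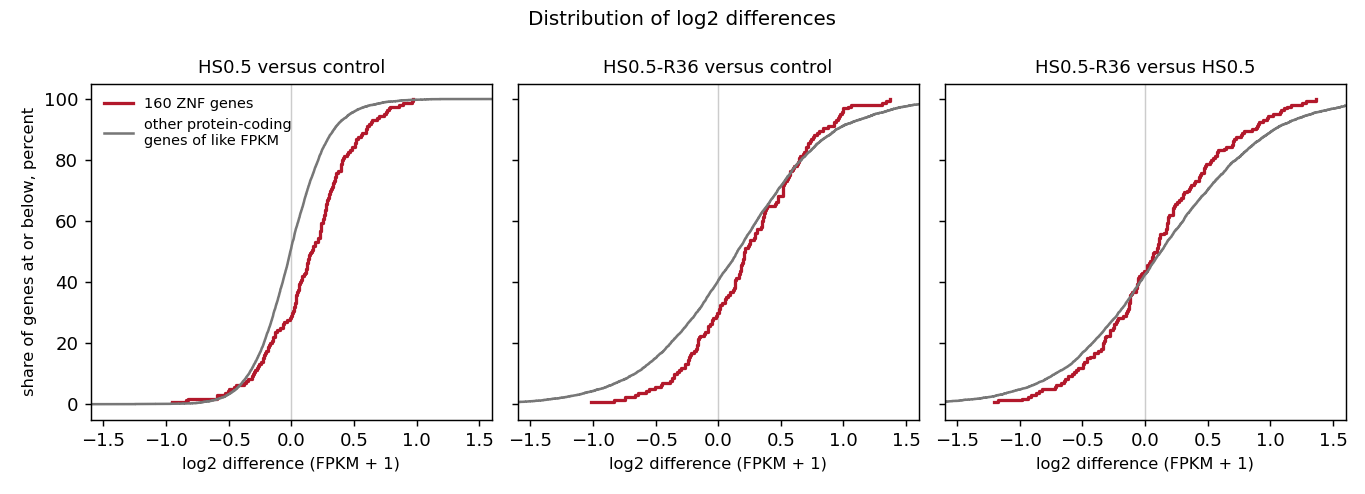
Cumulative distribution of log2 differences in FPKM + 1 for the 160 ZNF genes (red) and for other protein-coding genes of like FPKM (grey), in the 3 comparisons; the horizontal axis ends at 1.6 either way. In HS0.5 versus control the ZNF curve lies to the right (medians 0.16 and -0.01), and in HS0.5-R36 versus control fewer ZNF genes lie at the low end (13.1% called lower, against 23.3%).

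ZNF189 (ENSSSCG00000034239), a KRAB zinc finger gene on chromosome 1, rose most. It had 4.87, 4.77 and 6.18 FPKM in HS0.5 libraries, against 2.02, 2.32 and 2.22 FPKM in control libraries. The groups lay far apart, with the lowest HS0.5 value more than 2 FPKM above the highest control value, and the log2 difference was 0.97 ± 0.10 (SE, limma adjusted p = 0.002). After recovery it had 3.81, 3.34 and 3.20 FPKM in HS0.5-R36 libraries, still above control (0.48 ± 0.10, limma adjusted p = 0.003). ZNF189 overlaps a gene on the other strand in the table, and no source used here says whether reads were counted by strand.

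ZNF200, in a run of ZNF genes on chromosome 3, showed the same size of rise without its persistence. Its values were 4.77, 5.30 and 5.47 FPKM in HS0.5 libraries, against 2.58, 2.12 and 2.32 FPKM in control libraries. The groups did not overlap, with a 2.22-fold ratio of means and a log2 difference of 0.89 ± 0.09 (limma adjusted p = 0.002). By 36 h it was at 2.84, 3.06 and 2.46 FPKM in HS0.5-R36 libraries, which overlaps control (0.18 ± 0.09, limma adjusted p = 0.12) and lies under HS0.5 (-0.71 ± 0.09, limma adjusted p = 0.00013). ZNF570, a KRAB gene of the longest run on chromosome 6, followed the same course, with 6.54, 7.82 and 7.93 FPKM in HS0.5 libraries against 3.82, 3.70 and 4.39 FPKM in control libraries, and 4.07, 3.35 and 3.06 FPKM in HS0.5-R36 libraries. Its difference at 0 h was 0.76 ± 0.11 (limma adjusted p = 0.0091; without replicate 2 or 3 of HS0.5, 0.052 and 0.054).

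ZNF654 had 5.14, 5.30 and 6.75 FPKM in HS0.5 libraries, against 3.07, 1.71 and 2.69 FPKM in control libraries. The control libraries spread widely here, replicate 2 lying lowest, and the difference was 0.96 ± 0.16 (limma adjusted p = 0.014; without replicate 2 or 3 of HS0.5, 0.052 and 0.071). ZNF148 (ZBP-89), which binds GC-rich promoter sequences as an activator or repressor, had 15.2, 15.7 and 17.6 FPKM in HS0.5 libraries, against 9.50, 5.97 and 10.7 FPKM in control libraries. Its difference of 0.85 ± 0.19 was close to the threshold (limma adjusted p = 0.047, between 0.051 and 0.19 in the 13 of 22 other fits in which the call was lost), and 36 h later it stood at 18.0, 13.9 and 12.5 FPKM in HS0.5-R36 libraries. ZNF41, a KRAB gene on the X chromosome, had 1.93, 1.87 and 2.39 FPKM in HS0.5 libraries against 0.899, 0.857 and 0.896 FPKM in control libraries, at low FPKM but with tight groups (0.70 ± 0.09, limma adjusted p = 0.005). It was named after its values were seen, as 1 of the 4 calls that held in every fit that tested the gene.

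The 12 other rises were the KRAB genes ZNF2, ZNF45, ZNF175, ZNF283, ZNF569 and ZNF496 (also SCAN), and ZNF23, ZNF292, ZNF526, ZNF592, ZNF629 and ZNF660. Their differences ran from 0.35 for ZNF496 to 0.75 for ZNF292. ZNF592, whose product joins the reader ZMYND8 in a transcriptional coregulator complex, had 6.68, 6.65 and 7.37 FPKM in HS0.5 libraries, against 4.43, 3.44 and 4.44 FPKM in control libraries, with no overlap (0.64 ± 0.10, limma adjusted p = 0.011; 0.062 without HS0.5 replicate 3).

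ZNF628, ZNF784 and ZNF768 were the 3 that fell. ZNF628, whose mouse counterpart acts in the gene programme of spermatids, had 7.31, 5.96 and 6.22 FPKM in HS0.5 libraries, against 11.8, 13.8 and 11.3 FPKM in control libraries. The groups did not overlap and the log2 difference was -0.83 ± 0.11 (limma adjusted p = 0.0061). ZNF784, its neighbour on chromosome 6, had 1.63, 0.939 and 1.03 FPKM in HS0.5 libraries, against 2.95, 3.67 and 3.05 FPKM in control libraries, the largest fall among members at -0.95 ± 0.16 (limma adjusted p = 0.016; without replicate 2 or 3 of HS0.5, 0.072 and 0.086). ZNF768, whose product binds an old class of interspersed repeats in human cells, had 14.5, 13.8 and 13.3 FPKM in HS0.5 libraries, against 20.6, 23.3 and 18.0 FPKM in control libraries (-0.53 ± 0.10, limma adjusted p = 0.029; lost in 8 other fits, at 0.056 to 0.13).

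**Figure D3:**
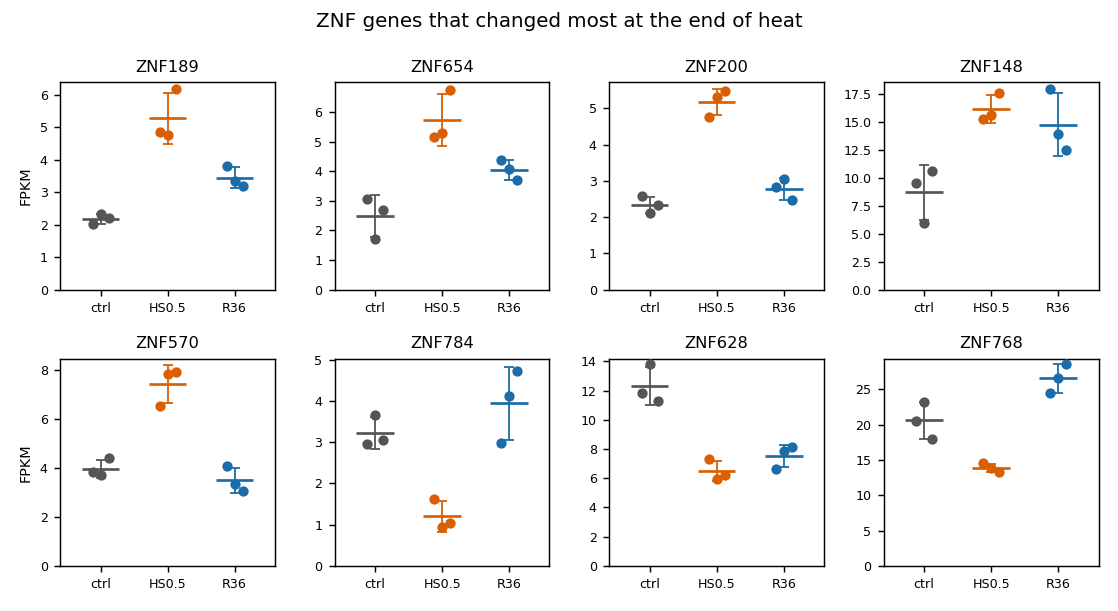
FPKM of the 8 ZNF genes named at the end of heat, in control (ctrl), HS0.5 and HS0.5-R36 (R36) libraries; points are libraries, lines the mean and bars the SD (n = 3). ZNF189, ZNF654, ZNF200, ZNF148 and ZNF570 are highest in HS0.5 or stay up at R36, and ZNF784, ZNF628 and ZNF768 are lowest in HS0.5.

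Gene length moved with the difference at 0 h. The 53 shortest members (up to 3406 bases) had a median of -0.15, against -0.12 for other protein-coding genes of that length and like FPKM; the 53 of middle length had 0.21, against -0.0036; and the 54 longest (over 6487 bases) had 0.26, against 0.10. Without control replicate 2 these medians were -0.03, 0.22 and 0.19, against -0.06, -0.01 and 0.05. With each library's trend with length removed they were 0.01, 0.20 and 0.14, against 0.01, -0.04 and -0.03. In the shortest band members and other genes thus lay close together in all 3 fits, while in the middle and longest bands the members lay above. Leaving out control replicate 2 also lowered the distance between members and genes of like FPKM to 0.14 log2, from 0.17 with all libraries.

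After 36 h of recovery the change was broad in all genes, and more ZNF genes were called higher than lower, mainly among the weakly expressed members. In HS0.5-R36 cells 69 members rose and 21 fell relative to control (43.1% and 13.1%), where 28.5% and 34.6% of all tested genes were called higher and lower. Genes of like FPKM came closer to the members, with 39.9% called higher and 23.3% lower. The median difference was 0.21 for the members, 0.15 for genes of like FPKM and -0.06 for all tested genes. Of the 43 members averaging under 2 FPKM, 27 were higher and 2 lower (median 0.38), a band that holds ZNF84 and ZNF704, whose place the filter fixed. Of the 60 averaging 2 to 5 FPKM 26 were higher and 5 lower, and of the 31 averaging 5 to 10 FPKM 9 and 7. Of the 26 averaging at least 10 FPKM 7 were higher and 7 lower (median -0.08). Every HS0.5-R36 library lay above every control library for 78 members (other protein-coding genes 30.0%) and below for 21 (other protein-coding genes 37.6%). These shares are over other tested protein-coding genes of any FPKM, and none is given for genes of like FPKM, which were called higher more often. Of the 69 rises, 6 belonged to members that passed the filter through HS0.5-R36 libraries alone and so had to be higher there. These 6 are also among the 78, and without them 63 rose and 21 fell. Members such as ZNF467 and ZNF567, both called higher, needed HS0.5-R36 libraries to pass as well. They are not among the 6, since another library of theirs reached 1 FPKM. The number of such members was not counted.

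The split between rises and falls rests on how libraries are scaled to each other. With FPKM scaled to the same sum in each library, 99 members were called higher and 7 lower, and the median of all tested genes moved to 0.23 from -0.06. After quantile normalization 58 were higher and 28 lower. Over the 22 other fits, the calls of 51 of the 69 rises and of 7 of the 21 falls held wherever the gene was tested. The fit with a filter of 2 FPKM tested 123 members, and neither ZNF84 nor ZNF704, which are among the 51. Both passed the main filter through HS0.5-R36 libraries alone and so had to be higher there. The 7 falls were ZNF367, ZNF566, ZNF16, ZNF598, ZNF79, ZNF628 and ZNF22.

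ZNF396 and ZNF24, SCAN domain genes that lie side by side on chromosome 6, rose together. ZNF396 had 15.9, 16.3 and 13.9 FPKM in HS0.5-R36 libraries, against 5.97, 3.69 and 6.67 FPKM in control libraries. No library of one group reached the other, and the log2 difference was 1.37 ± 0.16 (limma adjusted p = 8.2e-05), the largest among the members. ZNF24, a SCAN protein known in human cells as a repressor of the VEGFA gene, had 29.0, 25.2 and 23.6 FPKM in HS0.5-R36 libraries, against 12.8, 9.48 and 13.7 FPKM in control libraries (1.06 ± 0.13, limma adjusted p = 8.9e-05). Its HS0.5 values of 17.0, 17.3 and 17.5 lay between the groups, above every control library without passing the test at 0 h (0.51 ± 0.13, limma adjusted p = 0.063).

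ZNF467, whose mouse counterpart favours fat over bone cells when marrow precursors differentiate, had 3.58, 3.31 and 3.84 FPKM in HS0.5-R36 libraries, against 0.843, 0.83 and 0.743 FPKM in control libraries. That is a 4.44-fold ratio of means and a log2 difference of 1.34 ± 0.08 (limma adjusted p = 1.9e-06). At the end of heat it had 1.01, 0.785 and 0.839 FPKM in HS0.5 libraries, which overlap control. Outside HS0.5-R36 only the value of 1.01 reached 1 FPKM. ZNF467 thus needed the HS0.5-R36 libraries to pass the filter, and its call is no support for a rise of the members. ZNF514, a KRAB gene, had 7.19, 6.22 and 6.89 FPKM in HS0.5-R36 libraries, against 2.44, 1.56 and 2.51 FPKM in control libraries (1.31 ± 0.12, limma adjusted p = 1.9e-05). ZNF395, which binds GC-rich promoter elements and is known as a hypoxia-responsive activator, had 3.26, 3.13 and 2.99 FPKM in HS0.5-R36 libraries, against 1.13, 1.01 and 1.25 FPKM in control libraries (0.96 ± 0.08, limma adjusted p = 7.4e-06). ZNF398, ZNF362 and ZNF446 rose by 0.99 on the log2 scale each, to means of 3.47 ± 0.161, 2.76 ± 0.0306 and 3.23 ± 0.198 FPKM in HS0.5-R36 cells, against 1.25 ± 0.237, 0.891 ± 0.103 and 1.13 ± 0.143 FPKM in control. ZNF446 overlaps a gene on its own strand, so its reads may be shared. ZNF358, the member of second rank in expression, had 41.9, 41.7 and 41.4 FPKM in HS0.5-R36 libraries, against 19.2, 27.2 and 19.1 FPKM in control libraries, with HS0.5 values of 17.7 to 19.5 (0.92 ± 0.13, limma adjusted p = 0.00019).

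ZNF367 fell most. It had 3.17, 2.68 and 2.89 FPKM in HS0.5-R36 libraries, against 7.16, 6.53 and 7.02 FPKM in control libraries, a log2 difference of -1.02 ± 0.08 (limma adjusted p = 5.6e-06), with HS0.5 values of 7.79 to 8.15 FPKM, above every control library without a call. ZNF566, a KRAB gene of the long chromosome 6 run, had 5.75, 3.54 and 3.73 FPKM in HS0.5-R36 libraries, against 7.80, 8.72 and 8.48 FPKM in control libraries (-0.83 ± 0.14, limma adjusted p = 0.0007). ZNF16 (HZF1), studied in human blood cell differentiation, had 11.8, 13.1 and 13.1 FPKM in HS0.5-R36 libraries, against 22.9, 21.7 and 21.1 FPKM in control libraries. Its groups were tight and far apart (-0.75 ± 0.07, limma adjusted p = 2.2e-05). ZNF22 (KROX-26), a gene known from tooth development, had 2.83, 3.06 and 3.07 FPKM in HS0.5-R36 libraries, against 4.57, 4.85 and 4.55 FPKM in control libraries (-0.51 ± 0.07, limma adjusted p = 0.00019). ZNF79, which overlaps other genes on both strands, had 1.54, 1.55 and 1.5 FPKM in HS0.5-R36 libraries, against 2.69, 3.52 and 2.86 FPKM in control libraries (-0.66 ± 0.09, limma adjusted p = 0.00016). ZNF628 was still low, with 6.65, 7.84 and 8.11 FPKM in HS0.5-R36 libraries (-0.64 ± 0.11 against control, limma adjusted p = 0.00073), and was the single member called lower at both times.

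**Figure D4:**
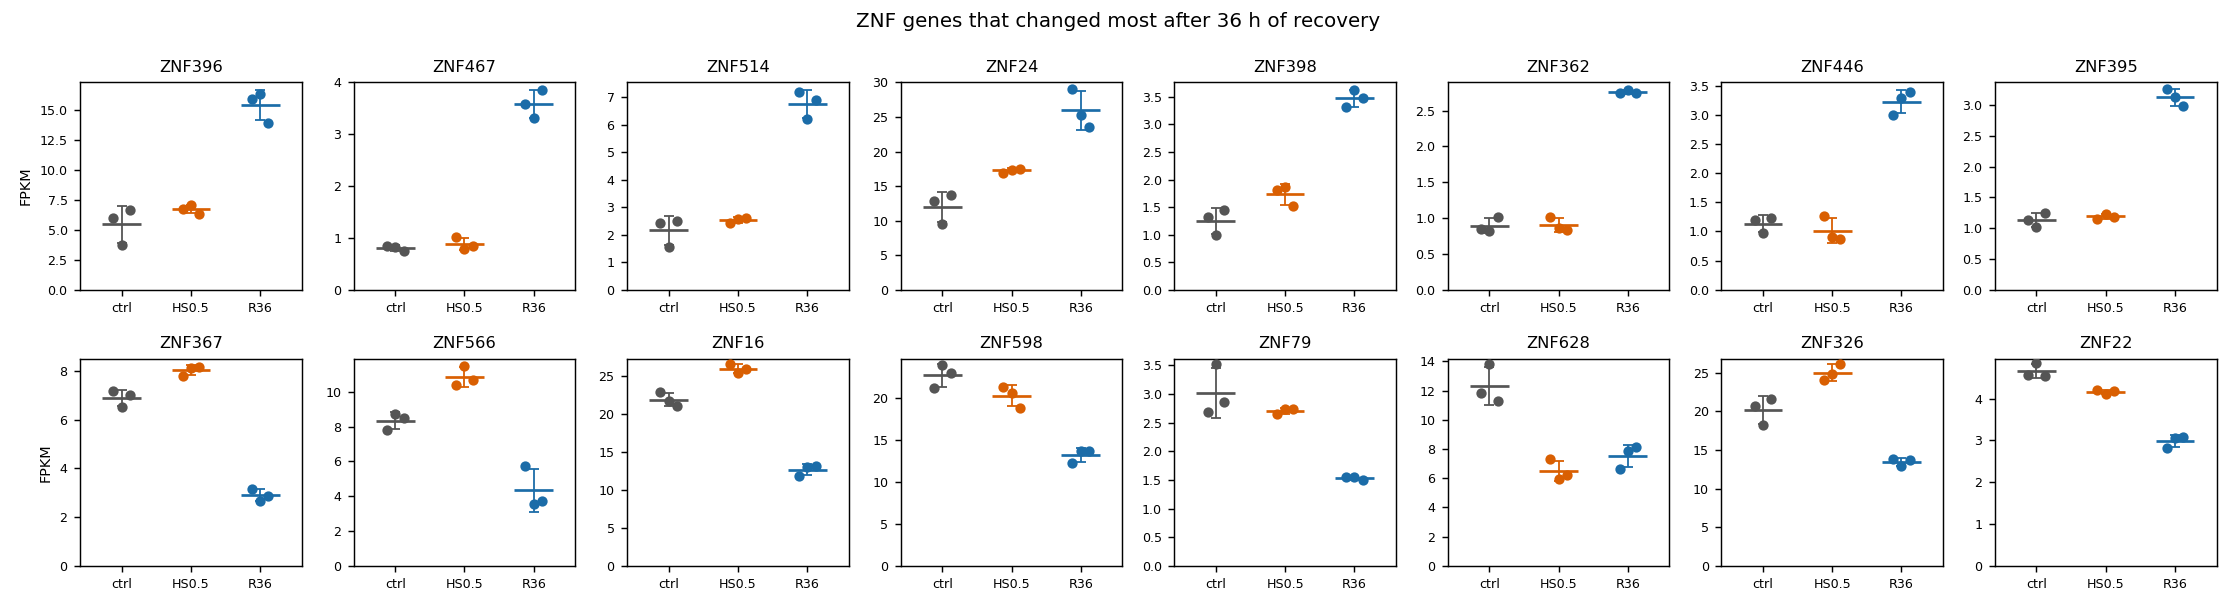
FPKM of the 16 ZNF genes named after recovery, the 8 largest rises above and the 8 largest falls below, in control (ctrl), HS0.5 and HS0.5-R36 (R36) libraries; points are libraries, lines the mean and bars the SD (n = 3). For ZNF467, ZNF362, ZNF446 and ZNF395 control and HS0.5 lie together and R36 alone is high; for ZNF367, ZNF16 and ZNF326 R36 alone is low.

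Counted over both comparisons with control, which share the control libraries, 14 members were called higher at both times, 4 at the end of heat only (ZNF200, ZNF496, ZNF569 and ZNF570) and 54 after recovery only, while 65 passed in neither. The 54 include the 6 members that passed the filter through HS0.5-R36 libraries alone, whose place the filter fixed. No such counts over both times are given for other genes, so these cannot be weighed against them. Of genes of like FPKM 2.68% were called higher at 0 h and 39.9% at 36 h. ZNF768 was the member called in opposite directions, lower at 0 h and higher at 36 h, when it had 24.5, 26.7 and 28.6 FPKM in HS0.5-R36 libraries (0.36 ± 0.10, limma adjusted p = 0.013; 0.053 without HS0.5-R36 replicate 3). A call at 1 time and not at the other is no test of a difference between the times; that is given by HS0.5-R36 set against HS0.5.

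Set directly against HS0.5 cells, HS0.5-R36 cells had 53 of the 160 members higher and 40 lower, where 28.8% and 35.0% of all tested genes were called higher and lower and 39.6% and 25.2% of genes of like FPKM. The 53 include the 6 members that passed the filter through HS0.5-R36 libraries alone, and without them 47 were higher and 40 lower. The median difference was 0.08 for the members (0.06 without those 6) and 0.13 for genes of like FPKM. The split again moved with the scaling, to 81 higher and 13 lower with the same sum in each library and to 42 higher and 54 lower after quantile normalization. Of the 18 members that rose at 0 h, 7 fell between the end of heat and 36 h (ZNF189, ZNF654, ZNF496, ZNF200, ZNF569, ZNF570 and ZNF592), 2 rose further (ZNF526 and ZNF45) and 9 did not pass. Of the 7, the calls of ZNF200 and ZNF570 held in all 22 other fits, and that of ZNF654 was lost in 12. These 18 were chosen on the HS0.5 libraries, which enter this comparison too.

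ZNF213, a SCAN and KRAB gene, showed the largest rise here: it had 4.56, 5.29 and 5.47 FPKM in HS0.5-R36 libraries, against 1.08, 1.66 and 1.41 FPKM in HS0.5 libraries (1.36 ± 0.14, limma adjusted p = 3.3e-05), with control between them at 2.08, 2.91 and 1.76 FPKM. ZNF579 had 4.99, 7.71 and 7.03 FPKM in HS0.5-R36 libraries, against 2.62, 2.14 and 1.72 FPKM in HS0.5 libraries (1.25 ± 0.18, limma adjusted p = 0.00024), and ZNF784 returned to 2.97, 4.13 and 4.72 FPKM in HS0.5-R36 libraries (1.16 ± 0.16, limma adjusted p = 0.00017), which overlaps its control values. ZNF281, a paralogue of ZNF148 that binds similar GC-rich sites, had 10.8, 10.1 and 9.92 FPKM in HS0.5-R36 libraries, against 21.0, 20.6 and 20.1 FPKM in HS0.5 libraries (-0.94 ± 0.27, limma adjusted p = 0.013; 0.12 with the same sum in each library). Its control values of 18.5, 7.21 and 16.8 FPKM spread too widely for a call against control, replicate 2 being the low one.

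The annotation in the table lists a KRAB box for 46 members, a SCAN domain for 11, of which 6 also list KRAB, and C2H2 fingers alone for 17. For 84 it lists no domain, so that these numbers are lower bounds. Of the 46 KRAB genes 9 rose and none fell at 0 h by limma (19.6%), with 29 higher and 2 lower at an unadjusted p under 0.05, a median of 0.29 and 40 of 46 positive. Of all 160 members 86 passed at an unadjusted p under 0.05 at 0 h, in either direction. No share at that threshold is given for all tested genes. Unadjusted counts, here and for the lists below, can thus not be weighed against other genes. Of the 114 others 9 rose and 3 fell (7.89%), with a median of 0.11. Without control replicate 2 the medians were 0.24 and 0.06 and 6 and 8 rose, with the same sum in each library 6 and 3 rose, and with the length trend removed the medians were 0.22 and 0.06. Summed KRAB gene FPKM was 107 to 114 for control, 138 to 148 for HS0.5 and 133 to 145 for HS0.5-R36 libraries. At 36 h 26 of the 46 were called higher and 6 lower, and 43 and 15 of the 114; with the same sum in each library these were 33 and 2, and 66 and 5, and after quantile normalization 17 and 9, and 41 and 19. Of the 11 SCAN genes 6 were higher at 36 h (ZNF24, ZNF396, ZNF213, ZNF174, ZNF445 and ZNF483) and none lower by limma (7 and none at an unadjusted p under 0.05). Of all tested genes 2.29% were called higher at 0 h, and 28.5% higher and 34.6% lower at 36 h. Of genes of FPKM like the 160 members, 39.9% were higher and 23.3% lower at 36 h. The KRAB genes were more weakly expressed than the 114 others, with a median FPKM of 2.17 against 4.22. Of the 43 members averaging under 2 FPKM, 27 were higher and 2 lower at 36 h. The differences between these groups of genes were not tested, nor was the part of expression level in them.

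The proteins with which KRAB proteins work were looked at as a list. Of 37 listed genes of the TRIM28, SETDB1, HP1, HUSH, NuRD and DNA methylation machinery, 34 were tested, and at 0 h none was called, with a median of 0.02 (limma; 3 were higher and 5 lower at an unadjusted p under 0.05, none was called by voom, 1 was lower without control replicate 2 and 2 with the length trend removed). At 36 h 6 were higher and 20 lower than in control, where 28.5% and 34.6% of all tested genes were called higher and lower, and the median was -0.38, against -0.06 for all tested genes. With the same sum in each library 8 of the 34 were higher and 13 lower, and after quantile normalization 8 and 15. The difference from the ZNF genes was not tested, and the list was not set beside genes of FPKM like its own. Control means were 228 FPKM for TRIM28 and 151 for SUMO2, which fell, and 1.02 to 10.8 FPKM for the 6 that rose. SUV39H1 and SUV39H2 fell with control means of 4.64 and 4.87 FPKM. The part of expression level was not tested. TRIM28, the scaffold itself, had 139.9, 145 and 149 FPKM in HS0.5-R36 libraries, against 208, 274 and 202 FPKM in control libraries, with control replicate 2 the high value. The log2 difference was -0.64 ± 0.12 (limma adjusted p = 0.0011), which was lost after quantile normalization (-0.07, limma adjusted p = 0.35). DNMT1, the maintenance DNA methyltransferase, and its recruiter UHRF1 fell furthest. DNMT1 had 19.8, 19.7 and 18.1 FPKM in HS0.5-R36 libraries, against 51.6, 41.7 and 51.5 FPKM in control libraries (-1.28 ± 0.09, limma adjusted p = 5e-06), and UHRF1 differed by -1.17 ± 0.11. HDAC1 (-0.80 ± 0.09) and SUMO2 (-0.93 ± 0.11) fell as well.

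Of the machinery, SETDB1, its partner ATF7IP, MORC2, EHMT2, DNMT3A and DNMT3B were the 6 that rose at 36 h. SETDB1, the H3K9 methyltransferase that TRIM28 brings in, had 8.14, 7.12 and 6.74 FPKM in HS0.5-R36 libraries, against 6.31, 4.82 and 6.14 FPKM in control libraries (0.31 ± 0.10, limma adjusted p = 0.028; without replicate 1 or 2 of HS0.5-R36, 0.099 and 0.057). ATF7IP differed by 0.57 ± 0.14 and DNMT3A, a de novo DNA methyltransferase at low expression, by 0.68 ± 0.11.

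Members that work on RNA, ribosomes or the spindle were among the most expressed. Of 8 such members none passed at 0 h by limma (2 higher and none lower at an unadjusted p under 0.05), and at 36 h 3 rose and 4 fell (3 and 1 with the same sum in each library, 3 and 2 after quantile normalization). Of all tested genes 28.5% were called higher and 34.6% lower at 36 h, and of genes of FPKM like the 160 members 39.9% and 23.3%. No list by role was tested against other genes. ZNF598, the ubiquitin ligase that marks collided ribosomes, had 12.2, 13.7 and 13.6 FPKM in HS0.5-R36 libraries, against 21.2, 23.9 and 23.0 FPKM in control libraries. No HS0.5-R36 library came near control, the difference being -0.74 ± 0.08 (limma adjusted p = 5.3e-05), while HS0.5 at 18.8 to 21.3 FPKM overlapped control. ZNF326 had 13.8, 12.9 and 13.7 FPKM in HS0.5-R36 libraries, against 20.7, 18.2 and 21.6 FPKM in control libraries (-0.55 ± 0.08, limma adjusted p = 0.00034; -0.22, 0.14 with the same sum in each library). The falls of ZNF622 (-0.35 ± 0.14, limma adjusted p = 0.048) and ZNF330 (-0.24 ± 0.09, limma adjusted p = 0.043) were near the threshold and were lost in 13 and 15 of the other fits. ZNF207 had 25.5, 20.8 and 20.9 FPKM in HS0.5-R36 libraries, against 24.9, 24.3 and 26.2 FPKM in control libraries, with no call (-0.16 ± 0.10, limma adjusted p = 0.17), though it lay under its HS0.5 values of 29.8 to 34.3 (-0.50 ± 0.10, limma adjusted p = 0.0014). ZNF318 (0.70 ± 0.17), ZNF346 (0.38 ± 0.08), a protein that binds double-stranded RNA, and ZNF638 (0.36 ± 0.13), which works with the HUSH complex on unintegrated DNA, rose, the call of ZNF638 being lost in 5 other fits.

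Of 9 members listed with chromatin complexes, ZNF217, ZNF516 and ZNF592 rose at 36 h and none fell by limma (4 higher and none lower at an unadjusted p under 0.05). With the same sum in each library 6 rose, and after quantile normalization 2. At 36 h 28.5% of all tested genes were called higher and 34.6% lower, and 39.9% and 23.3% of genes of FPKM like the 160 members. ZNF217, which recruits the CoREST and LSD1 repressor and is amplified in human breast cancers, had 6.16, 5.88 and 5.95 FPKM in HS0.5-R36 libraries, against 3.17, 2.57 and 3.93 FPKM in control libraries (0.74 ± 0.11, limma adjusted p = 0.00032) and -0.20 ± 0.11 at 0 h (limma adjusted p = 0.23). ZNF516 had 2.55, 3.39 and 2.85 FPKM in HS0.5-R36 libraries, against 1.96, 1.44 and 1.86 FPKM in control libraries (0.51 ± 0.13, limma adjusted p = 0.0077; 0.056 after quantile normalization), and the call of ZNF592 was lost in 4 other fits. ZNF687, which shares the ZMYND8 complex with ZNF592, did not pass against control (0.13 ± 0.12, limma adjusted p = 0.35). ZNF644, a partner of the G9a and GLP methyltransferases, had 5.69, 4.12 and 4.34 FPKM in HS0.5-R36 libraries, against 4.24, 2.93 and 5.03 FPKM in control libraries, which overlap (0.19 ± 0.16, limma adjusted p = 0.33).

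Of 10 members listed as activators at promoters and enhancers, ZNF148 and ZNF292 rose at 0 h, and these together with ZNF24 and ZNF395 at 36 h. Of all tested genes 2.29% were called higher at 0 h and 28.5% at 36 h, and of genes of FPKM like the 160 members 2.68% and 39.9%. The name of the list is loose, since ZNF24 is described above as a repressor and ZNF148 as either. With the same sum in each library none of the 10 was called at 0 h by limma and 8 were higher at 36 h. After quantile normalization, and also without control replicate 2, 1 of the 10 was called at 0 h. ZNF143, which binds at promoters, had 2.69, 2.65 and 2.74 FPKM in control libraries and 2.85, 2.71 and 2.83 FPKM in HS0.5 libraries. In HS0.5-R36 libraries it had 3.09, 2.90 and 2.85 FPKM (0.04 ± 0.07 at 0 h and 0.10 ± 0.07 at 36 h). ZNF410, known for a nearly single target, the CHD4 gene, had 3.34, 4.04 and 3.53 FPKM in control and 3.0, 3.29 and 3.13 FPKM in HS0.5-R36 libraries, a separation without a call (-0.16 ± 0.09, limma adjusted p = 0.15). Of the 7 members listed for development and signalling, none passed at 0 h by limma (1 higher and 1 lower at an unadjusted p under 0.05). ZNF703, ZNF704, ZNF395 (also on the list before) and ZNF436 rose at 36 h and ZNF469 fell, the calls of ZNF436 and ZNF469 being lost in 10 and 8 other fits. At that time 28.5% of all tested genes were called higher and 34.6% lower. ZNF703, a relative of the fly genes elbow and no ocelli, and ZNF704 had HS0.5-R36 means of 6.89 ± 0.537 and 1.39 ± 0.168 FPKM, against 4.18 ± 0.172 and 0.222 ± 0.0364 FPKM in control (0.60 ± 0.10 and 0.96 ± 0.09, limma adjusted p = 0.00076 and 1.8e-05). ZNF704 passed the filter through the HS0.5-R36 libraries alone, so it had to be higher there, and its call is no support for a rise of the list. Among 4 members tied to DNA damage or replication (ZNF830, ZNF668, ZNF281 and ZNF827) none passed against control at either time by limma (1 higher and 1 lower at an unadjusted p under 0.05 at 0 h, none higher and none lower at an unadjusted p under 0.05 at 36 h; 1 was lower at 36 h without control replicate 2).

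The members lie on 18 chromosomes, with 44 on chromosome 6 and 25 on chromosome 3, in the coordinates of the deposited table, whose build no source used here names. Of the 160, 68 lie in 18 runs whose starts are within 250 kb of the next, and 46 in 8 runs of at least 4. The longest run, on chromosome 6 at 45520895 to 46470075, holds 11 members, ZNF146, ZNF567, ZNF461, ZNF382, ZNF260, ZNF566, ZNF383, ZNF793, ZNF527, ZNF569 and ZNF570, of which 8 list a KRAB box. Of the 11, 10 were positive at 0 h, with a median of 0.34 and 2 calls (1 with the same sum or without control replicate 2), and between HS0.5 and HS0.5-R36 9 were called lower and none higher by limma, with a median of -0.46. With the same sum in each library 4 were lower and none higher, with a median of -0.22, and after quantile normalization all 11 were lower. With the FPKM as deposited, 2.29% of all tested genes were called higher at 0 h. Between HS0.5 and HS0.5-R36 35.0% of all tested genes and 25.2% of genes of like FPKM were called lower. Summed over the run, the FPKM was 38.0 to 46.5 for control, 54.96 to 64.8 for HS0.5 and 31.5 to 40.5 for HS0.5-R36 libraries.

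A second run on chromosome 6, at 59634503 to 59741338, holds ZNF628, ZNF579, ZNF524, ZNF865 and ZNF784, and had differences of the opposite sign. Of all tested genes 1.32% were called lower at 0 h and 28.8% higher between HS0.5 and HS0.5-R36 (39.6% of genes of like FPKM). All 5 genes of the run were negative at 0 h, with a median of -0.60 and 2 calls. Between HS0.5 and HS0.5-R36 they were positive, with a median of 0.47 and 3 calls (ZNF579, ZNF524 and ZNF784), or 5 calls with the same sum in each library. Their summed FPKM was 36.3 to 47.1 for control, 22.7 to 29.8 for HS0.5 and 33.4 to 43.7 for HS0.5-R36 libraries. These are shorter genes, with a median of 2997 bases against 6925 in the longest run. The median at 0 h was -0.45 without control replicate 2 and -0.60 with the length trend removed. The 4 members at the end of chromosome 4 (ZNF250, ZNF16, ZNF34 and ZNF7) were all negative between HS0.5 and HS0.5-R36, 3 of them with a call (all tested genes 35.0% lower). With the same sum in each library 1 of the 4 was positive and 1 called lower.

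Not every run moved as one. In the run of 7 on chromosome 3 at 17406273 to 17936471, ZNF629 rose and ZNF768 fell at 0 h, and 4 were higher and none lower by limma at 36 h (all tested genes 28.5% and 34.6%). In that at 38807499 to 39123443, ZNF200 rose at 0 h by 0.89 ± 0.09 while its neighbours ZNF213 and ZNF205 had -0.44 ± 0.14 and -0.46 ± 0.15 (limma adjusted p = 0.1 and 0.11). Among 4 neighbours on chromosome 18, ZNF467 rose by 1.34 ± 0.08 at 36 h and ZNF777 fell by 0.24. The runs were formed by position alone, and adjacent genes here can share reads where their annotated spans overlap: 20 of the 160 members overlap another gene on the same strand and 38 one on the other strand.

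**Figure D5:**
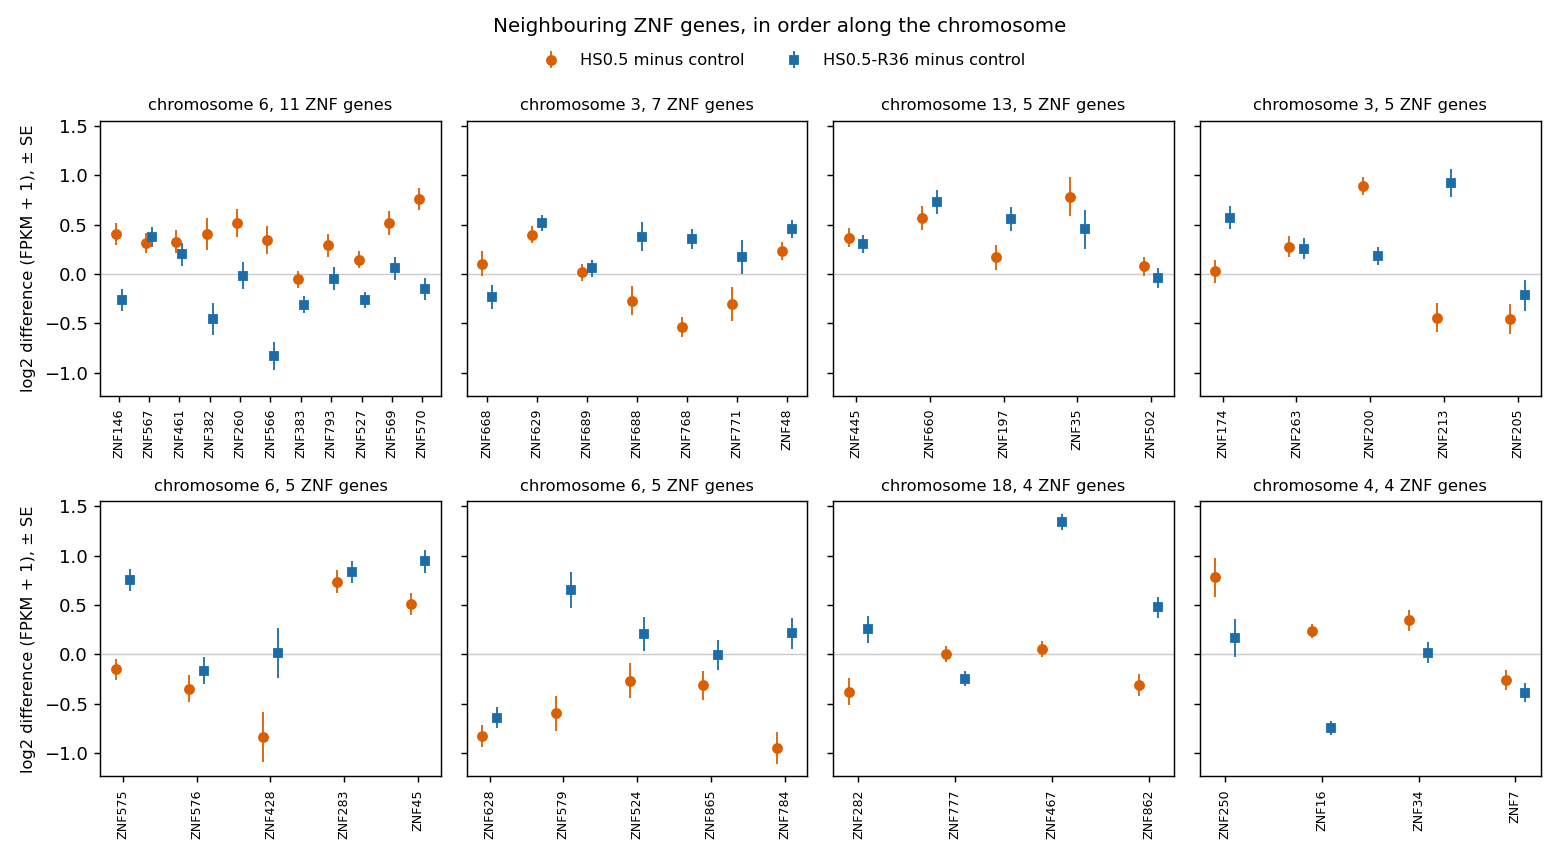
Log2 differences of FPKM + 1 (points, with SE bars) for the 8 runs of at least 4 neighbouring ZNF genes, in order along the chromosome: HS0.5 minus control (circles) and HS0.5-R36 minus control (squares). In the run of 11 on chromosome 6 the circles lie above the squares for 10 of 11 genes, and in the run from ZNF628 to ZNF784 the squares lie above the circles for all 5.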

How the data were processed

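Gene expression in 9 libraries was taken as FPKM per gene from the table deposited by the authors. Reads were aligned with HISAT2 2.0.5, per the submitters' processing notes; the genome build, the counting and the scaling between libraries are not given in the sources used here. FPKM times gene length gave whole reads for every value (tolerance 1e-05), and the reads so recovered per library, 18110565 to 21034021, set the precision. Genes with at least 1 FPKM in at least 3 libraries were tested with limma 3.58.1 in R 4.3.3 on log2(FPKM + 1), in 1 fit of all 9 libraries, with Benjamini-Hochberg adjustment over 11479 genes and a threshold of 0.05. The log scale understates changes of weakly expressed genes. Genes of like FPKM are the 9457 other protein-coding genes in 10 bins at the members' deciles, weighted to the members' numbers. Domains are those of the deposited annotation, since no protein sequences were used here. Genes were named by rank: the 5 largest called changes per direction (8 for HS0.5-R36 against control) among genes whose groups do not overlap, with a mean of at least 2 FPKM in the higher group, and the 10 most expressed; other genes named were chosen after their values were seen or belong to the lists by role. The members and the gene lists were chosen with earlier results of these data known. Alternatives were other pseudocounts, filters, scalings, length correction, library weights, voom on recovered reads, a replicate block, the compared groups alone and each library left out; the script was tested on simulated data. Those for length bands, KRAB genes and chromosomal runs, and leaving out the 6 members that passed through HS0.5-R36 alone, were chosen after seeing the data.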

Additional observations from a re-analysis of the deposited data

How the results depend on the processing

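Over the summaries and their alternatives, 177 of 225 values kept their side and size, 36 moved, 11 were weaker and 1 was stronger. For HS0.5-R36 against HS0.5, the member median turned negative after quantile normalization, and its distance from genes of like FPKM turned positive with a filter of 2 FPKM; neither value carries a test. For named genes, 744 of 782 values kept their call and 38 lost it. At 0 h the number of members called was 6 with the compared groups alone, 97 with library weights (where 5163 genes of all kinds were called), 10 with no filter, 12 with the replicate block, 13 with the same sum in each library and 5 at a threshold of 0.01. Same-numbered libraries showed no clear pairing: their deviations correlated at -0.429 to 0.265, and 2 of 9 libraries were closest to their own number. With 3 libraries per group this cannot exclude that same-numbered libraries share a culture or animal. The member median at 0 h was 0.233 with a pseudocount of 0.1 and 0.257 with voom. Its distance from genes of like FPKM was 0.133 with a filter of 2 FPKM, 0.147 with weights, 0.243 and 0.206 with pseudocounts of 0.1 and 0.5, and 0.305 with voom. At 36 h against control the median was 0.270 with the length trend removed, 0.296 with a pseudocount of 0.1, 0.129 after quantile normalization, 0.490 and 0.516 with the same sum (the second without mitochondrial and the top 20 genes) and 0.384 with voom; the distance was 0.122 with a filter of 2 FPKM, 0.0953 with a pseudocount of 0.1, 0.0871 after quantile normalization and 0.162 with voom. For HS0.5-R36 against HS0.5 the median was 0.129 with the length trend removed, -0.0599 after quantile normalization, 0.338 and 0.315 with the same sums and 0.192 with voom; the distance was 0.0280 with a filter of 2 FPKM, -0.0712 with weights, -0.0168 with no filter and -0.0827 after quantile normalization. With 1 library left out, the calls were 4 to 22 at 0 h, 80 to 94 at 36 h against control and 73 to 101 against HS0.5, the medians 0.137 to 0.208, 0.205 to 0.251 and 0.0324 to 0.087, and the distances 0.144 to 0.213, 0.0586 to 0.1003 and -0.0951 to -0.0356. The cause of these shifts was not tested. The authors' scaling between libraries is not described, and the implied library sizes differ between HS0.5-R36 and the other groups as given above, so the split of rises and falls at 36 h is known only under the scalings tried.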

Other observations

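Other zinc finger families in the same libraries were counted beside the ZNF genes, by symbol and without a set test. Of all tested genes 2.29% were called higher and 1.32% lower at 0 h, and 28.5% and 34.6% at 36 h against control, and no family was tested against other genes. Of 31 tested ZBTB genes, whose products join C2H2 fingers to a BTB domain for pairing, 6 were higher and none lower in HS0.5 than in control cells by limma, with a median log2 difference of 0.30; 3 were higher with the same sum in each library. ZBTB11 had the largest difference of the 6 at 1.02 (limma adjusted p = 0.00039). At 36 h 16 ZBTB genes were higher and 4 lower than in control, against 22 and 2 with the same sum in each library and 11 and 3 after quantile normalization. Of 14 ZFP genes 4 were higher and none lower at 0 h by limma, and 1 was higher with the same sum in each library. Among the 4 was ZFP36 at 0.65 (limma adjusted p = 0.025; 0.064 with the same sum, and 0.072 to 0.098 without any 1 of the HS0.5 replicates), a CCCH protein that promotes decay of AU-rich mRNAs and differs in kind from the C2H2 genes of that name. Of 8 ZNF genes whose number is followed by a letter, 3 were higher at 0 h (ZNF280C, ZNF518A and ZNF518B) and none lower by limma, and none was called with the same sum in each library.

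The KLF genes are C2H2 factors that bind GC-rich sites. Of 12 tested, none was higher and 2 were lower at 0 h by limma (KLF6 and KLF15, whose calls were lost in 13 and 12 other fits), with none called with the same sum and 1 higher and 2 lower without control replicate 2. At 36 h 4 were higher and 6 lower, and 5 and 5 with the same sum in each library. KLF6 had 23.3, 22.9 and 23.9 FPKM in HS0.5-R36 libraries, against 73.0, 60.3 and 78.4 FPKM in control libraries, a log2 difference of -1.55. KLF9, a target of glucocorticoid receptor, had 3.91, 3.96 and 4.06 FPKM in HS0.5-R36 libraries, against 0.538, 0.270 and 0.908 FPKM in control libraries, a log2 difference of 1.68. Of 14 ZC3H genes, which bind RNA through CCCH fingers, none was called at 0 h by limma, and 2 were higher and 5 lower at 36 h (5 and 3 with the same sum). Of 7 tested ZNF genes that have their symbol from the reference table alone and are therefore no members, 5 were higher and 2 lower at 36 h. The largest difference was that of ZNF593, a ribosome biogenesis factor, which had 6.49, 8.06 and 10.1 FPKM in HS0.5-R36 libraries, against 23.5, 35.3 and 22.5 FPKM in control libraries (limma adjusted p = 8.9e-05).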
